A study of Homo sapiens with 6 samples.

Results

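The genes described here are 10 genes of protein folding in the endoplasmic reticulum (ER) and of the unfolded protein response. They were chosen by symbol from the deposited table of gene expression, and all 10 of the 10 symbols were found among its 19571 genes. By role they are the ER chaperones HSPA5 (gene 3309), HSP90B1 (gene 7184), PDIA4 (gene 9601) and SDF2L1 (gene 23753), the ER J proteins DNAJB9 (gene 4189) and DNAJC3 (gene 5611), the degradation components HERPUD1 (gene 9709) and SEL1L (gene 6400), and the transcription factors XBP1 (gene 7494) and CREB3L4 (gene 148327). RNA came from LNCaP, a human prostate cancer line that responds to androgen. One group of 3 libraries (replicates 1, 2 and 4) came from LNCaP cells that stably overexpressed wild-type KDM4B, a histone lysine demethylase, with a Flag tag. The other group of 3 libraries (replicates 1, 2 and 3) came from LNCaP cells that stably carried a plenti6 control plasmid, called vector here. Before harvest, both groups were kept for 3 days in RPMI medium with 10% of a serum abbreviated as CFBS in the labels, after growth in RPMI medium with FBS. The labels do not say whether a group was 1 clone or a pool, what promoter drove KDM4B, or whether replicates were separate cultures, so a p-value here reflects the spread among these 6 samples alone, and that spread may be technical.

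Proteins that are secreted or inserted into membranes fold in the ER with the help of chaperones, and those that fail to fold are moved to the cytosol and degraded. When unfolded proteins accumulate, the sensors ERN1 (also called IRE1), EIF2AK3 (also called PERK) and ATF6 signal to the nucleus, and the transcription factors XBP1, ATF4 and cleaved ATF6 raise transcription of chaperones and degradation components. Prostate luminal cells are secretory, and CREB3L4 is known as an androgen-responsive factor of the ER membrane in prostate cells.

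Several of the 10 genes share known ER stress elements near their start, and the 250 bases before the RefSeq start (GRCh38.p14) of the 5 genes that hold a whole element are shown with those of CREB3L4, which holds none and had the most negative log2 fold change of FPKM + 1 of the 10 genes (with a pseudocount of 0.1 DNAJB9 was at -1.57 and CREB3L4 also at -1.57). Sequences run 5′ to 3′ on the strand of the gene. Capitals mark the ER stress element (ERSE: CCAAT and CCACG with 9 bases between them) in HSPA5, HSP90B1 and XBP1 and the second element (ERSE-II: ATTGG and CCACG with 1 base between them) in HERPUD1 and SDF2L1, on either strand. XBP1 has 2 RefSeq starts, and the more upstream one is shown.
HSPA5 (chr9:125241344-125241593, minus strand): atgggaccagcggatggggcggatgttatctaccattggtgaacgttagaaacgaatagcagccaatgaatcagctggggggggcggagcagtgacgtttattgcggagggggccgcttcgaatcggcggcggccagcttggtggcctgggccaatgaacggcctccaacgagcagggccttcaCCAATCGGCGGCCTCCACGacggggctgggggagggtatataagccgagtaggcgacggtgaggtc
HSP90B1 (chr12:103930160-103930409, plus strand): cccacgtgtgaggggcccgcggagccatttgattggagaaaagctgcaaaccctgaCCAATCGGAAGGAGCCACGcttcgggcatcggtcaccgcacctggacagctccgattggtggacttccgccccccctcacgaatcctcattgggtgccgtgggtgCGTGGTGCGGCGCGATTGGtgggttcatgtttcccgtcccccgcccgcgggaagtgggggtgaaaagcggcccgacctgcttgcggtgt
XBP1 (chr22:28800570-28800819, minus strand): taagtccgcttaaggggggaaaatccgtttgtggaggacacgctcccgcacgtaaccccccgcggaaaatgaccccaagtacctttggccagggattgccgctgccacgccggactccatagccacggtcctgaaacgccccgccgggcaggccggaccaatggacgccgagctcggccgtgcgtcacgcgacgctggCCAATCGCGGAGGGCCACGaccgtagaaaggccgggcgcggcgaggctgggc
HERPUD1 (chr16:56931892-56932141, plus strand): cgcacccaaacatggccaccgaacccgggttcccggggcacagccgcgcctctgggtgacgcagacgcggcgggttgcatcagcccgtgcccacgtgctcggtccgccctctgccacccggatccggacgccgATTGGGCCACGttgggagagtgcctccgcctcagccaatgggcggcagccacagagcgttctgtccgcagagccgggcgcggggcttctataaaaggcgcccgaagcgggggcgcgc
SDF2L1 (chr22:21642052-21642301, plus strand): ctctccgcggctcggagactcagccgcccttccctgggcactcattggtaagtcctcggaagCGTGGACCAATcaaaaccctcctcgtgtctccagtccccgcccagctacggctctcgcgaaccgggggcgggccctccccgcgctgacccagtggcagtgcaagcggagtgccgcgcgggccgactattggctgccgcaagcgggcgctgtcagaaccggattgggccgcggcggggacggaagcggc
CREB3L4 (chr1:153968000-153968249, plus strand): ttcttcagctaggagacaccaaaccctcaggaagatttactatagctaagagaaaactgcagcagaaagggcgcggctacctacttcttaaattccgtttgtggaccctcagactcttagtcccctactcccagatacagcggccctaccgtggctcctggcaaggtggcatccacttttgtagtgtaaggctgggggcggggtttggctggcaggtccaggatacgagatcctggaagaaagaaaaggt

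Only exact matches were searched, so elements that differ in any fixed base were not counted. The search covered both strands from 250 bases before to 50 bases after the start, in 35116 RefSeq promoters of 300 bases. A whole ERSE was found in 27 promoters (0.0769%) and a whole ERSE-II in 19 promoters (0.0541%). With the last base before the start counted as -1, the ERSE of HSPA5 lay at -66 to -48 and that of XBP1 at -52 to -34. HSP90B1 held 2 ERSE matches, at -194 to -176 on the strand of the gene and at -89 to -71 on the opposite strand. The ERSE-II of HERPUD1 lay at -117 to -107, and that of SDF2L1 at -188 to -178 on the opposite strand. PDIA4, DNAJB9, DNAJC3, SEL1L and CREB3L4 held no exact match to either element in this window. None of the 10 held an exact unfolded protein response element (UPRE, TGACGTGG), which 0.729% of all promoters held. The short parts of the ERSE say less, since the core CCACG was in 38.1% of all promoters and CCAAT in 34.6%, and both also lie inside each ERSE and, on either strand, inside each ERSE-II. CCACG was found in all 10 genes and CCAAT in 9, all but CREB3L4. A match is a description of these letters and not evidence of a bound site.

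**Figure D1:**
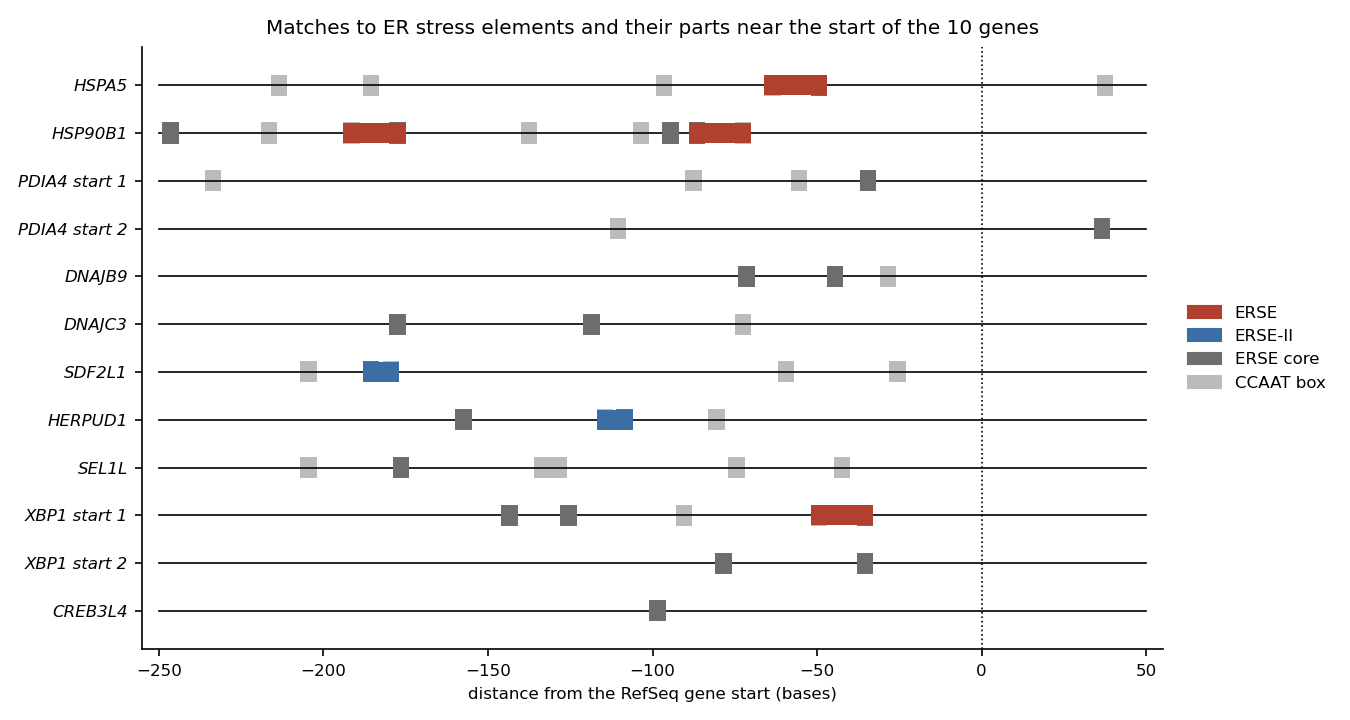
Positions of the ERSE, the ERSE-II, the ERSE core (CCACG) and the CCAAT box in the promoter windows of the 10 genes, with the distance from the RefSeq start in bases on the horizontal axis. For PDIA4 and XBP1, which have 2 starts each, start 1 is the more upstream one; 5 genes hold a whole element.

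Expression was given as FPKM, fragments per length of transcript and per mapped fragments, so levels of different genes can be set side by side. KDM4B itself measured 26.33, 27.17 and 25.76 FPKM in KDM4B-labelled libraries, against 24.73, 25.15 and 25.28 FPKM in vector libraries. It differed by 0.07 (SE 0.039) on the log2 scale between KDM4B-labelled libraries and vector libraries (limma adjusted p = 0.113), and the name "KDM4B-labelled" is therefore kept throughout. Ribosomal RNA genes took 8.14% to 10.5% of summed FPKM in KDM4B-labelled libraries and 0.144% to 0.473% in vector libraries. The median gene was lower by 0.22 (log2 fold change -0.22) as deposited. After each library was divided by its median of ratios (0.910, 0.948 and 0.922 in KDM4B-labelled libraries, 1.08, 1.09 and 1.09 in vector libraries), the median gene was at -0.01, and KDM4B was higher by 0.29 (limma adjusted p = 2.86e-05). Reads of its most-read skipped exon event were higher by 0.36 on the log2 scale (edgeR adjusted p = 0.000445). Both scales are therefore given. FPKM carry no count, so the depth is unknown; reads of skipped exon events, which share reads, summed to 14212396 to 14787321 in KDM4B-labelled libraries and to 16451082 to 17021204 in vector libraries.

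All 10 genes fell in KDM4B-labelled libraries. Of all 12148 tested genes, 60.3% fell as deposited. After scaling, all 10 again passed the test as lower, against 35.5% of all tested genes. In none of the 10 did the groups overlap on either scale; 61.7% of all genes were lower without overlap as deposited and 37.4% after scaling. Their median log2 fold change was -0.90 as deposited and -0.68 after scaling. Scaling that leaves out the ribosomal RNA genes also left all 10 lower, with log2 fold changes of -1.32 to -0.38, where 35.0% of all genes fell. At least 2-fold falls were seen in 4 of the 10 genes as deposited, where 3.42% of all genes fell that far, and in 3 after scaling, against 2.03%. Summed over the 10 genes, expression was 809.82, 819.81 and 825.75 FPKM in KDM4B-labelled libraries and 1560.95, 1535.54 and 1532.97 FPKM in vector libraries. Excluding ribosomal RNA, that was 0.198% to 0.205% of all FPKM in KDM4B-labelled libraries and 0.322% to 0.327% in vector libraries. In such bulk samples, fewer cells of a type and less RNA per cell cannot be told apart.

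**Figure D2:**
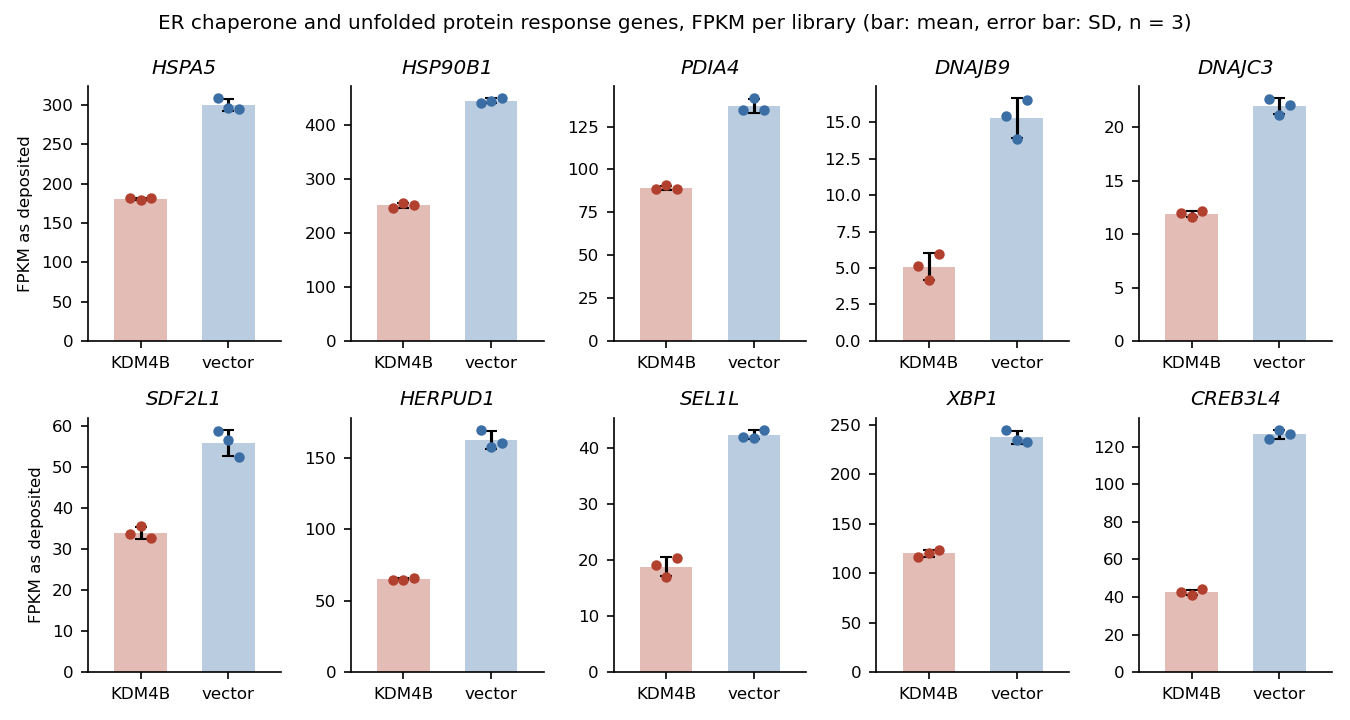
FPKM as deposited of the 10 genes, with KDM4B-labelled libraries left and vector libraries right; points are libraries, bars are means and error bars are SD (n = 3). In each panel the 3 KDM4B-labelled libraries lie below the 3 vector libraries, from 33.4% of the vector mean for DNAJB9 to 65.2% for PDIA4.

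Among the chaperones, HSPA5 (also called BiP) is the main Hsp70 of the ER and binds the sensors in unstressed cells. HSPA5 measured 181.14, 178.90 and 181.26 FPKM in KDM4B-labelled libraries, against 308.50, 295.54 and 295.01 FPKM in vector libraries. All KDM4B-labelled libraries lay far below the lowest vector library. The means were 180.4 ± 1.33 FPKM in KDM4B-labelled and 299.7 ± 7.64 FPKM in vector libraries (SD, n = 3 each), a log2 fold change of -0.73 (SE 0.033; limma adjusted p = 4.74e-09), or -0.50 after scaling.

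HSP90B1 (also called GRP94), the Hsp90 of the ER, had the highest level of the 10 genes. It measured 245.96, 255.42 and 251.15 FPKM in KDM4B-labelled libraries, against 440.13, 444.07 and 449.12 FPKM in vector libraries. The replicates of each group lay close together and the groups were well apart. The log2 fold change was -0.82 (SE 0.031; limma adjusted p = 1.28e-09), or -0.59 after scaling.

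PDIA4, a disulfide isomerase of the ER, changed least of the 10 genes. It measured 88.87, 90.67 and 88.31 FPKM in KDM4B-labelled libraries, against 134.60, 141.59 and 134.70 FPKM in vector libraries. SDF2L1, a partner of ER J proteins in complexes with HSPA5, measured 33.70, 35.62 and 32.67 FPKM in KDM4B-labelled libraries, against 58.79, 56.57 and 52.48 FPKM in vector libraries. Neither gene's groups overlapped, and vector libraries of SDF2L1 were the more spread out. The log2 fold change of PDIA4 was -0.61 (SE 0.035; limma adjusted p = 3.67e-08), or -0.38 after scaling. For SDF2L1 it was -0.70 (SE 0.049; limma adjusted p = 1.89e-07), or -0.48 after scaling.

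Both J proteins stimulate the ATPase of HSPA5, and DNAJC3 (also called p58IPK) is also known as an inhibitor of EIF2AK3. DNAJB9 (also called ERdj4) was the lowest expressed of the 10 genes, with 5.11, 4.20 and 5.99 FPKM in KDM4B-labelled libraries, against 15.45, 13.82 and 16.55 FPKM in vector libraries. DNAJC3 measured 11.97, 11.61 and 12.14 FPKM in KDM4B-labelled libraries, against 22.68, 21.17 and 22.06 FPKM in vector libraries. Even the highest KDM4B-labelled library lay below the lowest vector library for both, although DNAJB9 had the widest relative spread of the 10 genes, with a coefficient of variation of 17.5% in KDM4B-labelled libraries. The log2 fold change of DNAJB9 was -1.42 (SE 0.096; limma adjusted p = 1.26e-07), or -1.22 after scaling. For DNAJC3 it was -0.83 (SE 0.044; limma adjusted p = 1.73e-08), or -0.62 after scaling.

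HERPUD1 and SEL1L act in ER-associated degradation, in the complex around the ubiquitin ligase SYVN1 (also called HRD1). HERPUD1 measured 64.81, 64.83 and 65.98 FPKM in KDM4B-labelled libraries, against 169.86, 157.86 and 160.49 FPKM in vector libraries. SEL1L, the adaptor of SYVN1, measured 19.15, 16.98 and 20.33 FPKM in KDM4B-labelled libraries, against 42.00, 41.87 and 43.28 FPKM in vector libraries. Both were below 50% of the vector level in the group means, at 40.1% for HERPUD1 and 44.4% for SEL1L. After scaling HERPUD1 was at 47.0% and SEL1L at 52.1%. The log2 fold change of HERPUD1 was -1.31 (SE 0.037; limma adjusted p = 1.58e-10), or -1.08 after scaling. For SEL1L it was -1.13 (SE 0.057; limma adjusted p = 1.24e-08), or -0.91 after scaling.

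XBP1 is the transcription factor whose messenger RNA is spliced by ERN1 outside the nucleus, and CREB3L4 is a membrane-bound factor of the CREB3 family that is released by proteolysis. XBP1 measured 116.56, 120.24 and 123.84 FPKM in KDM4B-labelled libraries, against 245.03, 234.22 and 232.53 FPKM in vector libraries. CREB3L4 measured 42.55, 41.34 and 44.08 FPKM in KDM4B-labelled libraries, against 123.91, 128.83 and 126.75 FPKM in vector libraries. The groups were far apart relative to their spread in both genes. The log2 fold change of XBP1 was -0.98 (SE 0.037; limma adjusted p = 1.28e-09), or -0.75 after scaling. For CREB3L4 it was -1.55 (SE 0.038; limma adjusted p = 6.44e-11), or -1.32 after scaling. Only 0.905% of all tested genes had a more negative log2 fold change than CREB3L4, against 12.6% for PDIA4. FPKM per gene do not separate the spliced from the unspliced XBP1 messenger RNA, so that ratio was not analysed here.

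**Figure D3:**
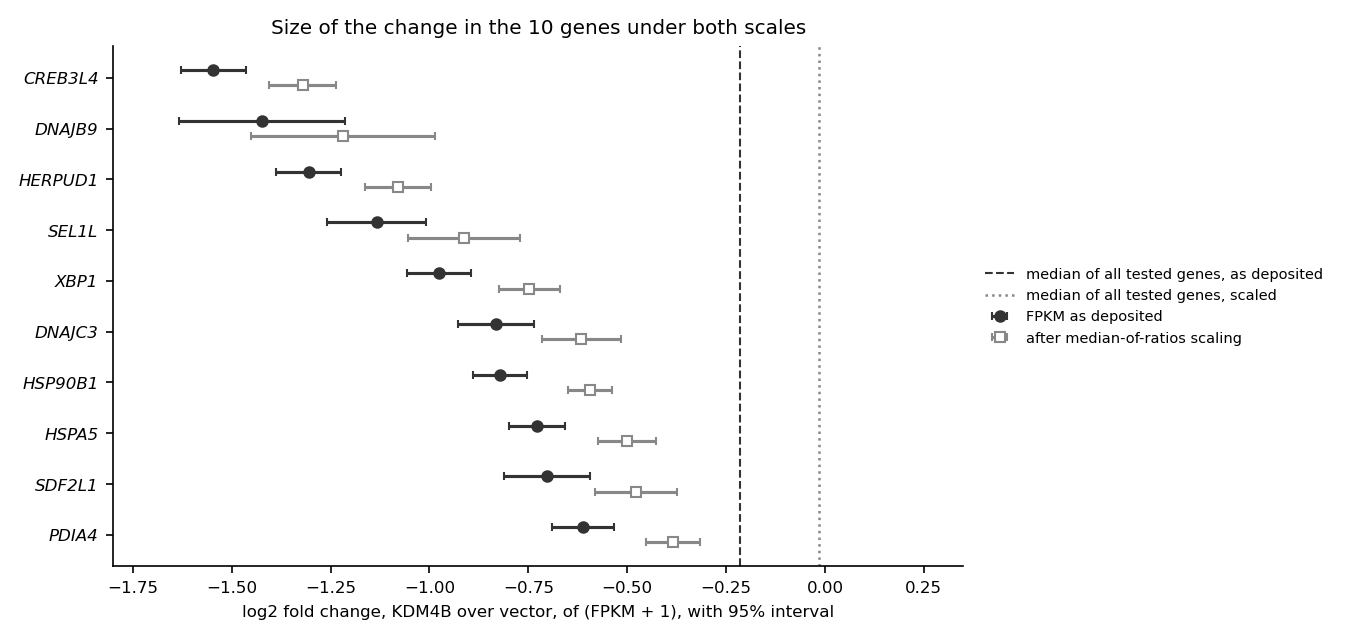
Log2 fold changes of FPKM + 1, KDM4B-labelled libraries over vector libraries, with 95% intervals from limma, for the 10 genes from CREB3L4 at the top to PDIA4 at the bottom. Filled circles are FPKM as deposited and open squares are values after median-of-ratios scaling; all 20 intervals lie left of the median of all tested genes on the same scale, at -0.22 and -0.01.

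The 10 genes did not fall by the same factor. With all values taken relative to HSPA5 in the same library, a comparison added after the values were seen and in which 91.0% of all genes differed, the log2 fold change of CREB3L4 was -0.82 (limma adjusted p = 3.44e-10). On the same scale DNAJB9 lay at -0.69 (limma adjusted p = 2.47e-06), HERPUD1 at -0.58 (limma adjusted p = 3.07e-09) and SEL1L at -0.41 (limma adjusted p = 9.76e-06). XBP1 lay at -0.25 (limma adjusted p = 3.43e-05). The 3 other chaperones and DNAJC3 lay close to HSPA5. HSP90B1 was at -0.09 (limma adjusted p = 0.0410) and PDIA4 at 0.12 (limma adjusted p = 0.0236). For DNAJC3 the difference of -0.10 had a 95% interval of -0.21 to 0.00 (limma adjusted p = 0.0631), and for SDF2L1 the difference of 0.03 had an interval of -0.08 to 0.14 (limma adjusted p = 0.622). Neither interval shows that the genes changed alike.

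A second readout from the same libraries was the number of reads of the most-read skipped exon event of each gene, which was present for 8 of the 10 genes. DNAJB9 and SDF2L1 had no such event in the tables used. All 8 fell in edgeR's quasi-likelihood test, where 22.3% of 8908 genes with an event fell and the median gene was at 0.00. CREB3L4 had 644, 646 and 629 reads in KDM4B-labelled libraries and 1894, 2013 and 1876 reads in vector libraries. Its log2 fold change was -1.37 (edgeR adjusted p = 1.67e-22). HERPUD1 had 1432, 1567 and 1394 reads in KDM4B-labelled libraries and 3910, 3517 and 3590 reads in vector libraries. In both genes the groups were again widely separated, and the log2 fold change of HERPUD1 was -1.11 (edgeR adjusted p = 7.09e-22). The other 6 had log2 fold changes of -0.79 for SEL1L, -0.64 for XBP1, -0.63 for HSP90B1, -0.51 for HSPA5, -0.47 for DNAJC3 and -0.44 for PDIA4. DNAJC3 had the fewest reads, 224, 179 and 207 in KDM4B-labelled libraries and 357, 287 and 339 in vector libraries, and the weakest test (edgeR adjusted p = 0.000631).

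Splicing was the stated subject of the study, and the tables used here held 36 skipped exon and 11 mutually exclusive exon events of the 10 genes and 0 alternative 5′ splice site or retained intron events. CREB3L4 had 14 of the 36, HERPUD1 7, SEL1L 5, PDIA4 4, DNAJC3 3, and HSPA5, HSP90B1 and XBP1 1 each. No tested event of the 10 genes passed, and the tested events belonged to CREB3L4, HERPUD1, PDIA4, SEL1L and DNAJC3. The events of HSPA5, HSP90B1 and XBP1 had no recovered second form or other event to be set against, and were not tested. DNAJB9 and SDF2L1 had no event. All 4 tested skipped exon events with both forms recovered were in CREB3L4, and they share skipping reads in pairs. Of these 4, edgeR called 0 and DESeq2 called 0, where edgeR called 5.5% of all such events. At an unadjusted p under 0.05 in edgeR were 0 of the 4, against 276 of 1346 of all. The log2 odds ratios of the 4 lay between -1.66 and -0.44 (lowest edgeR adjusted p = 0.328). Of 6 mutually exclusive exon events edgeR called 0 and DESeq2 called 0, where edgeR called 1.63% of all. At an unadjusted p under 0.05 in edgeR were 0 of the 6, against 305 of 2997 of all. Of 22 events set against the other events of their gene, edgeR called 0 and DESeq2 called 0, where edgeR called 0.473% of all. At an unadjusted p under 0.05 in edgeR were 3 of the 22, against 2377 of 29359 of all. The log2 odds ratios of the 22 lay between -0.21 and 0.16. Fewer events were called among all events whichever library was left out, and most of all without a vector library. For skipped exons edgeR called 74 of 1346 events, against 10 of 1205 without vector replicate 1, 32 of 1208 without vector replicate 2 and 20 of 1216 without vector replicate 3. Without KDM4B replicates 1, 2 and 4 it called 54, 56 and 70. For events set against the rest of their gene it called 139, against 75, 90 and 87 without vector replicates 1, 2 and 3. Without KDM4B replicates 1, 2 and 4 it called 94, 95 and 105 of these. In CREB3L4 an exon of 247 bases was skipped in 3, 7 and 8 reads of KDM4B-labelled libraries and in 13, 10 and 15 reads of vector libraries. The whole event had 476, 513 and 466 reads in KDM4B-labelled libraries and 1455, 1506 and 1423 reads in vector libraries, so skipping reads were a small part in every library. HERPUD1 has an exon with 2 acceptor sites 3 bases apart, of 75 and 72 bases. The event with the longer exon held 60.1%, 59.7% and 59.7% of the reads of both events in KDM4B-labelled libraries and 60.5%, 61.0% and 59.5% in vector libraries. These shares overlapped (two-sided exact permutation test, p = 0.4, where 0.1 is the smallest p possible), and the 2 events share reads, so the shares are not the use of each site. The positions of the events lay outside the GRCh38.p14 genes of RefSeq for all 36, so no exon positions are given.

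Ratios of 2 genes within a library do not depend on how libraries are scaled. Each of the 10 genes was set against a relative or partner, and in all 10 pairs the groups did not overlap, where 76.3% of single genes did not overlap in either direction as deposited. That share depends on how libraries are scaled, and no share over ratios of other genes was computed. With 3 against 3 libraries the exact permutation test gives p = 0.1 for each pair (0.1 after Benjamini-Hochberg adjustment over 10 pairs), the smallest possible. Set against cytosolic relatives, the ER chaperones were lower in KDM4B-labelled libraries. HSP90B1 per HSP90AA1, the inducible cytosolic Hsp90, was 0.782, 0.755 and 0.839 in KDM4B-labelled libraries, against 2.37, 2.32 and 2.27 in vector libraries. The more abundant of the pair was thus HSP90AA1 in KDM4B-labelled libraries and HSP90B1 in vector libraries. DNAJB9 per DNAJB1, the cytosolic J protein, was 0.117, 0.0949 and 0.143 in KDM4B-labelled libraries, against 0.532, 0.431 and 0.538 in vector libraries. On the log2 scale the ratio changed by -1.55 for HSP90B1 and by -2.09 for DNAJB9. It changed by -0.78 for HSPA5 per HSPA8, the constitutive cytosolic Hsp70, whose own log2 fold change was 0.05 as deposited (limma adjusted p = 0.319) and 0.28 after scaling. It changed by -0.76 for DNAJC3 per DNAJC7, a cytosolic J protein.

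The other partners also act at the ER. The log2 change was -0.73 for HERPUD1 per HERPUD2, its paralog, -0.59 for SDF2L1 per SDF2, its paralog, -0.48 for CREB3L4 per CREB3L2 and -0.47 for SEL1L per SYVN1. PDIA4 per PDIA3, another disulfide isomerase, went the other way, with a log2 change of 0.17. XBP1 per ATF6 also had a log2 change of 0.17, or 0.089 with a pseudocount of 1 added to both genes. Its ratio was above that of every vector library in each KDM4B-labelled library, although both genes fell.

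**Figure D4:**
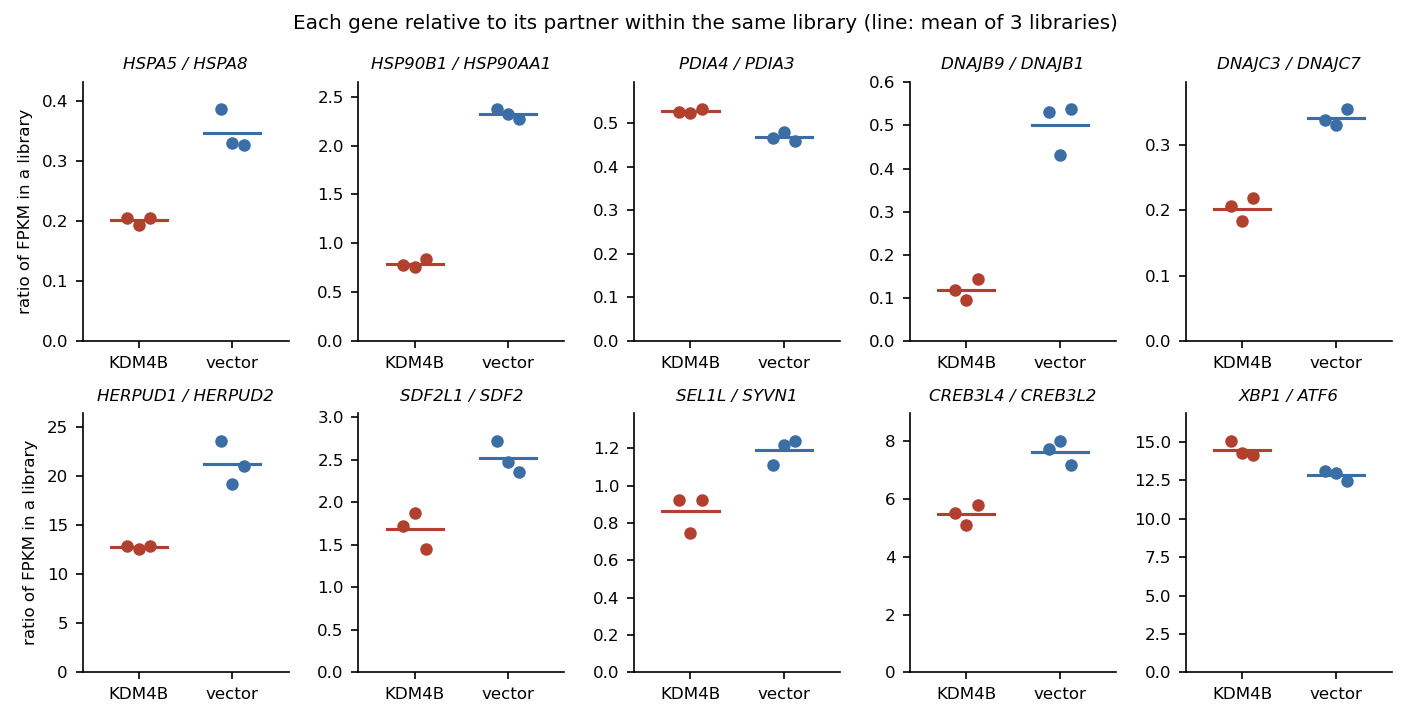
Ratio of the FPKM of each gene to that of its partner within a library, with KDM4B-labelled libraries left and vector libraries right; points are libraries and lines are means (n = 3). The ratio is lower in KDM4B-labelled libraries in 8 pairs and higher for PDIA4 per PDIA3 and XBP1 per ATF6, with log2 changes from -2.09 to 0.17.

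The other chaperones and oxidoreductases of the ER moved the same way as the 10 genes. Of 28 tested, 27 fell and 0 rose as deposited, with a median log2 fold change of -0.69, and 26 fell after scaling, with a median of -0.46. Over all tested genes the share that fell was 60.3% as deposited and 35.5% after scaling. The 4 with the lowest p were DNAJC10, a J protein that reduces disulfides, PDIA5, a disulfide isomerase, HYOU1, an exchange factor of HSPA5, and PPIB, a prolyl isomerase. DNAJC10 averaged 12.2 FPKM in KDM4B-labelled libraries and 37.5 FPKM in vector libraries, a log2 fold change of -1.55 (-1.33 after scaling). HYOU1 averaged 58.6 FPKM in KDM4B-labelled libraries and 124 FPKM in vector libraries (log2 fold change -1.07; -0.84 after scaling). PPIB averaged 383 FPKM in KDM4B-labelled and 664 FPKM in vector libraries (-0.79; -0.56 after scaling), and PDIA5 averaged 29.5 FPKM in KDM4B-labelled and 63.7 FPKM in vector libraries (-1.09; -0.86 after scaling). Proteins that move into the ER pass the translocon, and of its genes with those of the signal peptidase and oligosaccharyltransferase, 26 of 27 fell as deposited (median -0.62) and 24 fell and 1 rose after scaling (median -0.39), against the same shares over all genes. Among them SSR3, a subunit of the translocon-associated complex, averaged 46.2 FPKM in KDM4B-labelled libraries and 108 FPKM in vector libraries (log2 fold change -1.20; -0.98 after scaling). RPN1, a subunit of the oligosaccharyltransferase, averaged 127 FPKM in KDM4B-labelled libraries and 220.2 FPKM in vector libraries (-0.79; -0.56 after scaling).

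Genes of ER-associated degradation were mixed. As deposited 19 of 26 fell and 0 rose (median -0.45), and after scaling 16 fell and 6 rose (median -0.23). Of all tested genes 60.3% fell as deposited, and 35.5% fell and 32.5% rose after scaling. EDEM3, which trims mannose from glycoproteins, averaged 9.99 FPKM in KDM4B-labelled libraries and 34.6 FPKM in vector libraries, a log2 fold change of -1.70 (-1.48 after scaling). UBE2J1, the ubiquitin-conjugating enzyme of the SYVN1 pathway, averaged 9.25 FPKM in KDM4B-labelled libraries and 26.9 FPKM in vector libraries (-1.44; -1.23 after scaling). DERL3, of the derlin channel family, averaged 1.36 FPKM in KDM4B-labelled and 5.57 FPKM in vector libraries (-1.48), and VIMP, a membrane anchor of VCP, averaged 22.4 FPKM in KDM4B-labelled and 52.5 FPKM in vector libraries (-1.19; -0.97 after scaling). VCP itself, the ATPase that extracts substrates from the membrane, averaged 149.58 FPKM in KDM4B-labelled libraries and 147.54 FPKM in vector libraries. It did not pass the test as deposited (limma adjusted p = 0.621) and was one of the 6 that rose after scaling, by 0.25. VCP was named after its values were seen.

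Of 14 sensors and transducers, 11 fell and 1 rose as deposited (median -0.44), and 9 fell and 3 rose after scaling (median -0.22). The shares of all genes that fell were 60.3% as deposited and 35.5% after scaling. ERN1 averaged 7.60 FPKM in KDM4B-labelled libraries and 20.4 FPKM in vector libraries, a log2 fold change of -1.32 (-1.11 after scaling). ATF6 averaged 8.32 FPKM in KDM4B-labelled libraries and 18.5 FPKM in vector libraries (-1.06; -0.85 after scaling), and its relative ATF6B averaged 8.92 FPKM in KDM4B-labelled and 18.9 FPKM in vector libraries (-1.01; -0.80 after scaling). EIF2AK3 averaged 8.08 FPKM in KDM4B-labelled libraries and 13.0 FPKM in vector libraries (-0.62; -0.41 after scaling). In the PERK and ATF4 arm, all 14 genes fell as deposited (median -1.24) and 13 fell and 0 rose after scaling (median -1.01), against the same shares. TRIB3, a pseudokinase induced by ATF4, averaged 40.1 FPKM in KDM4B-labelled libraries and 289 FPKM in vector libraries, a log2 fold change of -2.82 (-2.59 after scaling). ASNS, asparagine synthetase, averaged 59.8 FPKM in KDM4B-labelled libraries and 158 FPKM in vector libraries (-1.39; -1.16 after scaling). CEBPB, a partner of ATF4, averaged 12.3 FPKM in KDM4B-labelled and 41.4 FPKM in vector libraries (-1.68; -1.46 after scaling), and CEBPG averaged 18.4 FPKM in KDM4B-labelled and 51.5 FPKM in vector libraries (-1.44; -1.22 after scaling).

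In the CREB3 family, 2 of the 4 relatives of CREB3L4 were tested, and both fell on both scales. Of all tested genes 60.3% fell as deposited and 35.5% after scaling. CREB3L2 averaged 7.80 FPKM in KDM4B-labelled libraries and 16.6 FPKM in vector libraries (log2 fold change -0.998; -0.79 after scaling), and CREB3 averaged 17.6 FPKM in KDM4B-labelled and 27.9 FPKM in vector libraries (-0.63; -0.42 after scaling). CREB3L1 and CREB3L3 were near 0 FPKM in both groups. Whether CREB3L4 differed from CREB3 was not tested.

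Most chaperones outside the ER moved the other way. Of 20 tested heat shock and J proteins of the cytosol and mitochondria, 12 rose and 5 fell as deposited (median 0.24), and 17 rose and 1 fell after scaling (median 0.46), where 13.4% of all tested genes rose as deposited and 32.5% after scaling. The 5 that fell as deposited became 3 without KDM4B replicate 1, vector replicate 2 or vector replicate 3, and 2 without KDM4B replicate 4 or vector replicate 1. HSP90AA1 averaged 317 FPKM in KDM4B-labelled libraries and 192 FPKM in vector libraries, a log2 fold change of 0.72 (0.95 after scaling). DNAJA1, a J protein of HSPA8, averaged 139 FPKM in KDM4B-labelled libraries and 85.6 FPKM in vector libraries (0.69; 0.92 after scaling), and STIP1, which links Hsp70 to Hsp90, averaged 140.3 FPKM in KDM4B-labelled and 95.4 FPKM in vector libraries (0.55; 0.78 after scaling). The gene that fell on both scales was HSPA9, the mitochondrial Hsp70, with 107 FPKM in KDM4B-labelled libraries and 191 FPKM in vector libraries (-0.83; -0.60 after scaling). The mitochondrial chaperones HSPD1 and TRAP1 also fell as deposited, by small amounts (-0.09 and -0.16), and were at 0.14 and 0.07 after scaling. Mitochondrial HSPE1 rose on both scales (0.37 as deposited and 0.60 after scaling). HSPD1, TRAP1 and HSPE1 were named after their values were seen. HSPA1A and HSPA1B are near-identical copies, so how reads were split between them is uncertain.

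**Figure D5:**
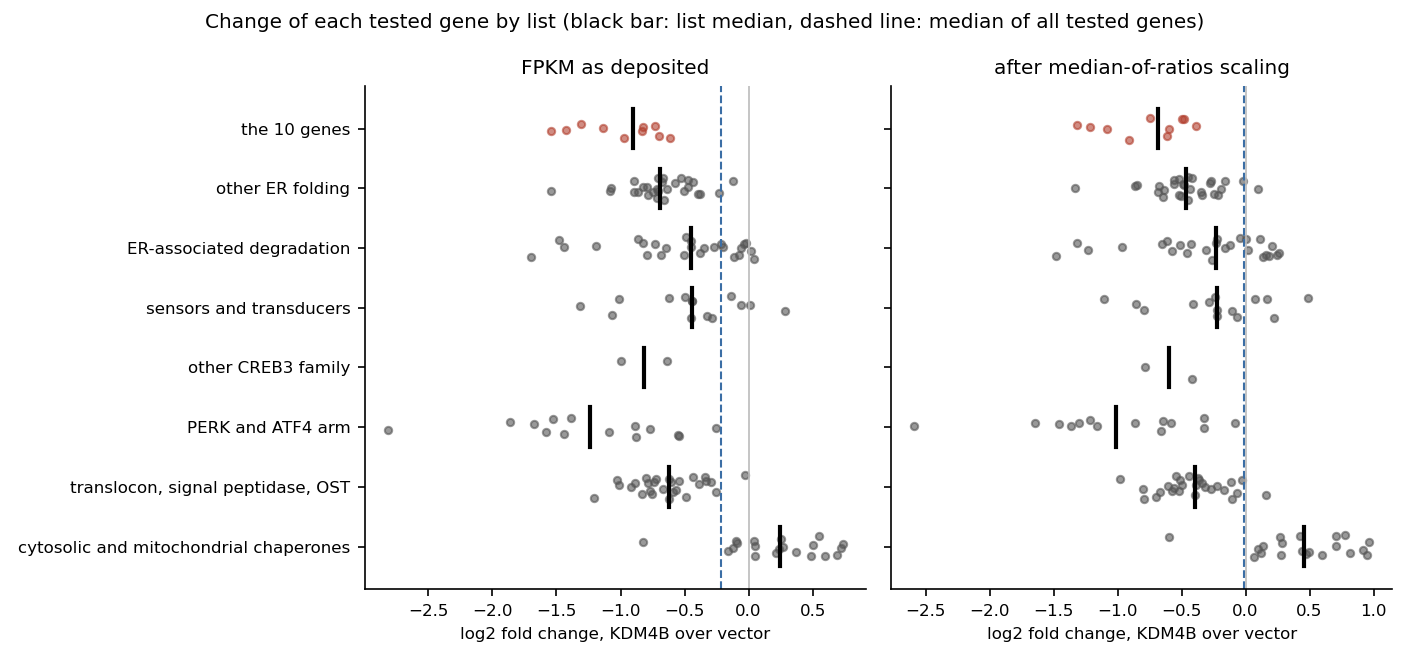
Log2 fold changes, KDM4B-labelled libraries over vector libraries, of each tested gene by list, with FPKM as deposited left and after median-of-ratios scaling right; black bars are list medians and dashed lines are the median of all tested genes (-0.22 and -0.01). The 10 genes have a median of -0.90, the ER lists lie left of the dashed line by their medians, and the cytosolic and mitochondrial chaperones lie right of it (0.24).

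The cells carried LNCaP markers in every library. Of 12 prostate luminal and LNCaP markers 9 fell and 3 rose as deposited and 8 fell and 3 rose after scaling, where 60.3% of all genes fell as deposited and 35.5% after scaling, and their summed FPKM were 1964.5 to 2019.28 in KDM4B-labelled libraries and 4595.25 to 4780.28 in vector libraries. KLK3, the gene of prostate-specific antigen, averaged 441 FPKM in KDM4B-labelled libraries and 2212 FPKM in vector libraries. Of 13 markers of immune, endothelial and stromal cells in the table, 4 passed the filter on low values. Of these 4, 2 rose as deposited and 3 after scaling, where 13.4% and 32.5% of all tested genes rose. Summed FPKM of the 13 were 17.95 to 22.48 in KDM4B-labelled libraries and 11.4 to 12.62 in vector libraries. Most of that sum in KDM4B-labelled libraries was ACTA2, smooth muscle actin, with 10.6 FPKM in KDM4B-labelled libraries and 3.53 FPKM in vector libraries. None of the 13 was at 0 in every library, but PTPRC, which marks immune cells, averaged 0.013 FPKM in KDM4B-labelled and 0.020 FPKM in vector libraries, and PECAM1, which marks endothelium, averaged 0.023 FPKM in KDM4B-labelled and 0.033 FPKM in vector libraries. Also below the filter, COL3A1 averaged 0.36 FPKM in KDM4B-labelled and 0.067 FPKM in vector libraries. VWF went the other way, with 0.40 FPKM in KDM4B-labelled and 0.92 FPKM in vector libraries. The part of these markers in the change of the 10 genes was not tested.

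Promoters with a whole ERSE belonged to 25 genes, of which 15 were tested. As deposited 14 fell and 0 rose, with a median log2 fold change of -0.64, and after scaling 14 fell and 1 rose, with a median of -0.42. Among all tested genes 60.3% fell as deposited and 35.5% after scaling. Without HSPA5, HSP90B1 and XBP1, 11 of 12 fell on both scales, with medians of -0.54 and, after scaling, -0.31. Several of these are also on the list of ER folding genes, among them CALR and CANX, the lectin chaperones, and PDIA6. CALR averaged 449 FPKM in KDM4B-labelled libraries and 636 FPKM in vector libraries, and CANX averaged 105 FPKM in KDM4B-labelled and 167 FPKM in vector libraries. FICD, which modifies HSPA5 by AMPylation, averaged 3.00 FPKM in KDM4B-labelled libraries and 8.46 FPKM in vector libraries, a log2 fold change of -1.24 (-1.05 after scaling). The ERSE gene that did not fall was ZNF17, with 3.32 FPKM in KDM4B-labelled and 3.35 FPKM in vector libraries. An ERSE-II was held by 19 genes, of which 14 were tested, and these were split: 9 fell and 3 rose as deposited (median -0.25), and 5 fell and 4 rose after scaling (median -0.04), shares close to those over all genes. HERPUD1, HYOU1 and SDF2L1 were among those that fell on both scales. CALR, CANX, PDIA6, FICD and ZNF17 were named after their values were seen.

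The genes whose pattern over the 6 libraries was most like the mean pattern of the 10 genes, by Pearson's r of log2 scaled values, were LPAR3, EIF1, GTPBP2, GGCT and ZFAS1. LPAR3, a receptor of lysophosphatidic acid, averaged 9.34 FPKM in KDM4B-labelled libraries and 45.6 FPKM in vector libraries, and GTPBP2, a GTP-binding protein, averaged 12.3 FPKM in KDM4B-labelled and 91.6 FPKM in vector libraries. GGCT averaged 73.7 FPKM in KDM4B-labelled and 165 FPKM in vector libraries. ZFAS1, a noncoding RNA, averaged 64.1 FPKM in KDM4B-labelled and 168 FPKM in vector libraries. EIF1, a translation initiation factor, averaged 342 FPKM in KDM4B-labelled libraries and 702 FPKM in vector libraries. Likeness over 6 libraries of 2 groups mainly follows the group difference, and r was over 0.95 for 1350 of 6387 genes.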

How the data were processed

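RNA-seq of 3 KDM4B-labelled libraries and 3 vector libraries was used. The authors deposited FPKM per gene, per the file headers, and whole-number read counts per splicing event, not normalized, per the file headers. Per the submitters' processing notes, the tools were HISAT, StringTie and Cufflinks and the build GRCh38, also given as hg38, with no roles or versions; the annotation and splicing caller were not given in the sources used here. A suffix in the KDM4B-labelled titles is missing from vector titles, so any batch cannot be told apart from the group.

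Genes averaging at least 1 FPKM over the 6 libraries were tested with limma 3.58.1 (R 4.3.3; mean-variance trend, two-sided) on log2(FPKM + 1), which understates changes of low genes, with Benjamini-Hochberg adjustment over all tested genes at 0.05. The median-of-ratios scaling used the same fit. Event counts were tested with edgeR 4.0.16 (quasi-likelihood), with DESeq2 1.42.0 as an alternative, for splice forms with at least 10 reads in each library. The planned test assumed counts of both splice forms; each event has 1 count, so both forms were recovered from skipped and mutually exclusive exon events on the same exons, and other events were set against the remaining events of their gene. Replicates differed by more than sampling noise (chi-square per degree of freedom 2.41 to 2.97 within groups and 27.7 to 32.9 between groups), and none was a duplicate. Scripts were tested on simulated data.

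The 10 genes, the lists and the pairs were chosen with earlier results of these data known. Named were the 10 genes, KDM4B, their partners, up to 4 genes of each list with the lowest p, and 5 genes by likeness; exceptions are stated. Promoters came from RefSeq (GRCh38.p14), matched by gene ID for 10 of 10 genes. Alternatives were another pseudocount (0.1), filter (mean FPKM of 5 or none), scaling and test, blocking on the replicate number, and leaving out single libraries.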

Additional observations from a re-analysis of the deposited data

How the results depend on the processing

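All 10 genes were lower and past the threshold in each of 20 alternatives of the expression test per gene, and the 8 genes with event reads in each of 10. Counts over all genes depended on scaling: 1628 genes were higher and 7323 lower as deposited, 3939 and 4305 after median-of-ratios scaling, and 3995 and 4244 after scaling without ribosomal RNA. Leaving out 1 library gave 1440 to 1587 higher and 6830 to 7454 lower genes as deposited, and 3573 to 3773 higher and 3965 to 4129 lower genes after scaling. Of the 7 lists outside the 10 genes, 13 genes were higher as deposited, 27 after scaling and 29 after scaling without ribosomal RNA. With 1 library left out, 12 to 13 were higher as deposited and 25 to 28 after scaling. Cytosolic and mitochondrial chaperones made up 12 of the 13 and 17 of the 27. In the 7 lists 104 genes were lower as deposited and 91 after scaling. Of all tested genes 13.4% were higher and 60.3% lower as deposited, and 32.5% were higher and 35.5% lower after scaling. KDM4B was past the threshold in 9 alternatives with scaling, at 0.28 to 0.31 (log2). Scaling combined with the block or with a left-out library was added after seeing the data.

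Replicate numbers 1 and 2 occur in both groups, and same-numbered libraries shared little (correlations of deviations of -0.02 and 0.13). Libraries with different numbers had correlations of -0.15 to 0.10. So few pairs cannot show whether same-numbered libraries were prepared together. Numbers 3 and 4 occur in 1 group each, so with the replicate block the change rests on the libraries numbered 1 and 2 alone. With the replicate block 1582 genes were higher and 6877 lower, and all 10 genes were lower, with 2 of the cytosolic and mitochondrial chaperones lower in place of 5 (also 2 without the variance trend and 3 without a filter on low values); with scaling and the block, 3496 were higher, 3894 lower and 24 of the lists higher. Of the 10 ratios of pairs, none could pass at 3 against 3. Precision is limited by 3 libraries per group and an unknown depth for FPKM.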
